A study of Mus musculus with 16 samples.

Results

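Collagen is folded, hydroxylated and crosslinked by dedicated enzymes, and 10 genes of this machinery were followed in the left ventricles of PKM2fl/fl and PKM2-/- mice. They are the prolyl 4-hydroxylase subunits *P4ha1* and *P4ha3*, the lysyl hydroxylases *Plod1* and *Plod2*, the collagen chaperone gene *Serpinh1*, and the lysyl oxidases *Lox*, *Loxl1*, *Loxl2*, *Loxl3* and *Loxl4*. Members were taken by gene symbol from a table of 55492 genes, and all 10 were found. PKM2 is the splice isoform of pyruvate kinase that includes exon 10 of *Pkm*, and the study asked what its loss does in the uninjured heart and after myocardial infarction (MI). The 16 libraries came from male C57BL/6 mice aged 8 to 12 weeks, each library from its own mouse. There were 2 untreated hearts (baseline), 3 hearts taken 3 days after sham surgery and 3 hearts taken 3 days after permanent ligation of the left anterior descending artery (MI) for each genotype. Control mice carried the floxed *Pkm* allele and no Cre. PKM2-/- mice carried a germline deletion made with Cre under a CMV promoter, which was bred out afterwards, so PKM2 was absent from every cell type and not from cardiomyocytes alone. Sham mice went through the same operation without the ligation. The samples were whole ventricle tissue, in which fewer cells of a type and less RNA per cell cannot be told apart.

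A collagen chain is modified in the endoplasmic reticulum before it is secreted. Prolyl 4-hydroxylase puts hydroxyl groups on prolines, which holds the triple helix together at body temperature, and the lysyl hydroxylases modify lysines that later take part in crosslinks. HSP47, the product of *Serpinh1*, binds the folded triple helix and travels with it to the Golgi. Outside the cell, lysyl oxidases oxidise lysine and hydroxylysine side chains of collagen and elastin, and the resulting aldehydes form the crosslinks that give scar tissue its strength. Fibroblasts are a main source of these enzymes in the heart, where an infarct is replaced by a collagen scar. *P4ha1*, *Plod2* and *Lox* are known targets of the hypoxia factor HIF-1 in other settings, and PKM2 has been described as a partner of HIF-1.

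Promoters of some members are shown because the core of the HIF-binding site could be looked for in them. RefSeq promoter windows of mouse assembly GRCm38.p6, the coordinates of the mm10 build used by the authors, were at hand for 5 of the 10 members: *Loxl4*, *P4ha1*, *P4ha3*, *Plod1* and *Serpinh1*. Each window was taken from 250 bases before to 50 bases after a transcript start, and the sequences below end at the last base before the gene's outermost start. They read 5′ to 3′ on the gene's own strand. Capitals mark GCGTG or ACGTG, or the same letters on the other strand (CACGC or CACGT).
P4ha1, chr10:59323046-59323196, forward strand: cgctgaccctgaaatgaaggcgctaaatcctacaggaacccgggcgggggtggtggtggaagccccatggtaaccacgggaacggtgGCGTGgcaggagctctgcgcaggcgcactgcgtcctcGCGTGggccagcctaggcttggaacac
P4ha3, chr7:100285270-100285488, forward strand: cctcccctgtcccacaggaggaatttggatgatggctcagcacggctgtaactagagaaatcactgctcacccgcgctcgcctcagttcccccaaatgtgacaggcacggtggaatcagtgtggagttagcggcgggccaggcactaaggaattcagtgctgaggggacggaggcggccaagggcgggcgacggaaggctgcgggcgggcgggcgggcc
Serpinh1, chr7:99353240-99353489, reverse strand: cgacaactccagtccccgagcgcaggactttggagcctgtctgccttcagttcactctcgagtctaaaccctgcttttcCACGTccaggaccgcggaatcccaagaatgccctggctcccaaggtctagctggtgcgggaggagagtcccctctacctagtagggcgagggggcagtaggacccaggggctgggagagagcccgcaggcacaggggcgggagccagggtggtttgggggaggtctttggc
In these stretches the *P4ha1* sequence held GCGTG 2 times, the *Serpinh1* sequence held ACGTG 1 time on the other strand, and the *P4ha3* sequence held 0 matches. The *Plod1* and *Loxl4* stretches, which are not printed, held GCGTG 1 time each. Over the whole 300-base windows, 4 of the 5 members held at least 1 match to either form, while 43.8% of 32817 promoter windows did. ACGTG alone was in 19.6% of the windows and GCGTG alone in 32.4%. G and C made up 61.6% to 76% of the 5 member stretches, and windows of like composition were not compared, so these shares cannot show an enrichment. Of *P4ha1*, *Plod2* and *Lox*, named above as HIF-1 targets, only *P4ha1* had a window here. The AP-1 motif TGANTCA (7.81% of windows) and the TEAD motif GGAATG (14.7% of windows), searched on both strands, were in 0 of the 5 member windows. A match is a description of the letters and not a binding site.

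Depth ran from 20623769 to 71855101 reads per library, and 15.8% to 46.0% of them fell on 6 rRNA-related loci. Values are normalized counts, which are reads per gene scaled by a DESeq2 size factor for each library. *Pkm* ranged from 7779 to 16113 normalized counts in all hearts. Reads of both isoforms were counted together, so this value cannot check the loss of exon 10. Of 10 cardiomyocyte marker genes, all were measured in every library, among them *Ttn*, *Myh6* and *Ryr2*. A gene passed a comparison when its Benjamini-Hochberg adjusted p from limma was under 0.05, where the adjustment covered the 20576 genes that averaged 10 or more normalized counts. All 10 members met that minimum.

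**Figure D1:**
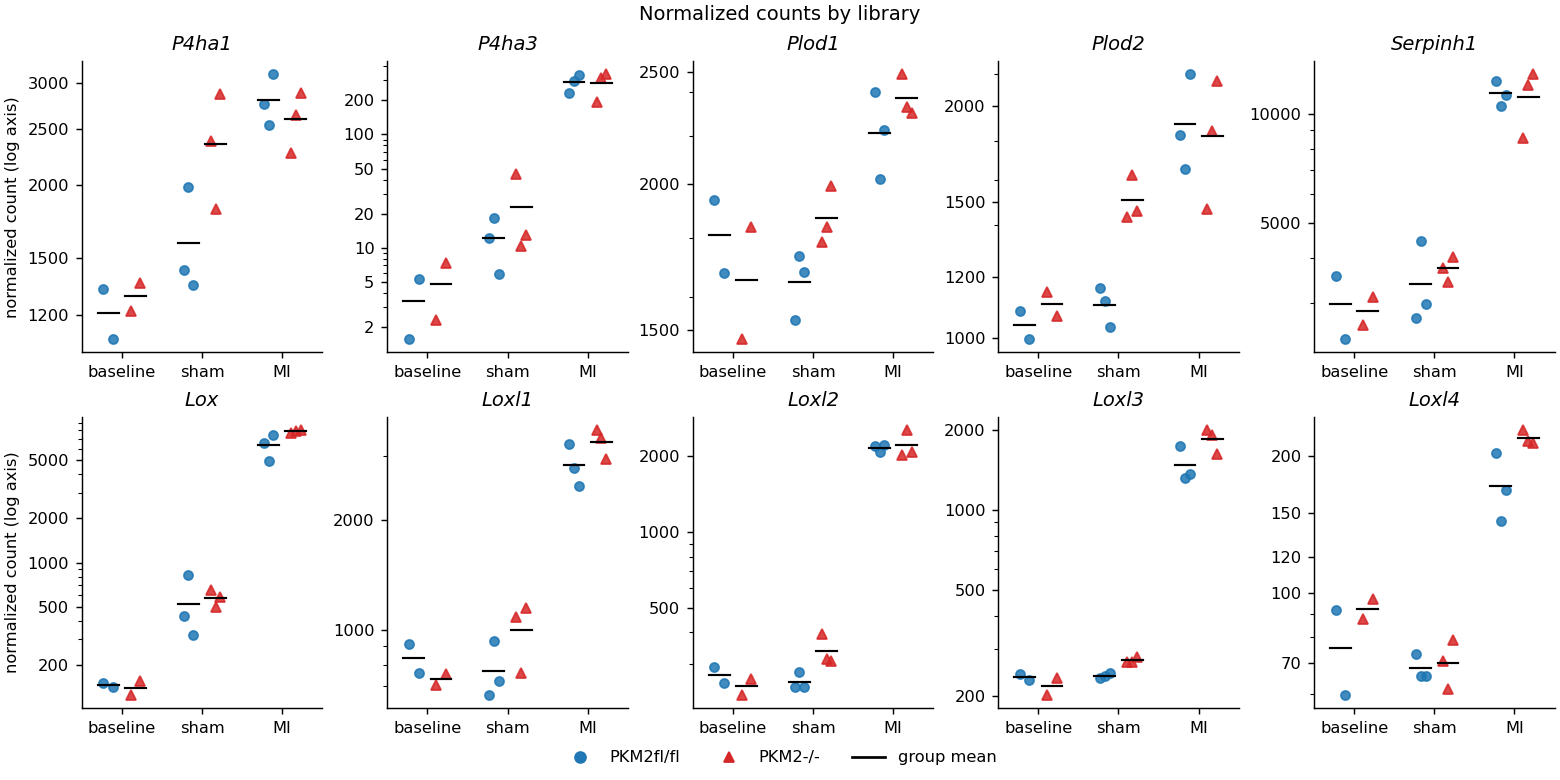
Normalized counts (vertical axis, logarithmic, with its own scale in each panel) of the 10 genes in each library at baseline, after sham surgery and after MI. Circles are PKM2fl/fl hearts, triangles PKM2-/- hearts and bars group means; the MI hearts lie above the sham hearts of their genotype in every panel except those of *P4ha1* and *Plod2* in PKM2-/-, where they overlap.

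After MI, the members for proline and lysine modification, the chaperone and all 5 lysyl oxidases were higher than after sham surgery in PKM2fl/fl hearts. The members were chosen with earlier results of these data known. The prolyl 4-hydroxylase gene *P4ha2*, which is not among them, did not rise, with means of 955 normalized counts after sham surgery and 805 after MI in PKM2fl/fl. All 10 members passed, against 24.8% of all tested genes that rose in that comparison. In PKM2-/- hearts 8 of 10 rose, against 28.7% of all tested genes, and *P4ha1* and *Plod2* did not pass. The median log2 fold change of the members was 1.83 in PKM2fl/fl and 1.69 in PKM2-/- hearts, while the median over all tested genes was -0.00254 and 0.0105. In PKM2fl/fl the groups did not overlap for any of the 10 members (30.0% of all tested genes lay apart in that direction), and in PKM2-/- they did not overlap for 8 (31.7%). Scaling the libraries to their total reads, rRNA included, moved the median of all genes to -0.17 and 0.52 and the number of members that rose to 7 and 9, with *P4ha1*, *Plod1* and *Plod2* not passing in PKM2fl/fl. Scaling to the reads outside the rRNA-related loci moved the medians to 0.12 and 0.36 and gave 10 and 10. Relative to those medians, all 10 members lay above the typical gene in both genotypes under each scaling. A scaling moves all genes of a library almost alike, so this sameness was fixed in advance and does not test the scaling.

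*P4ha1* encodes the main catalytic subunit of prolyl 4-hydroxylase. It had 1430, 1988 and 1350 normalized counts in the PKM2fl/fl sham hearts and 2759, 2534 and 3100 in the PKM2fl/fl MI hearts. Every MI heart was above every sham heart, and *P4ha1* rose 1.78-fold (log2 fold change 0.83, SE 0.17, adjusted p = 0.000834 from limma). In PKM2-/- hearts the sham values were 2386, 1818 and 2864 and the MI values 2269, 2639 and 2885. These groups overlapped, with the highest sham heart close to the highest MI heart. The log2 fold change was 0.16 (95% interval -0.20 to 0.52, adjusted p = 0.448 from limma), and it was -0.02 without PKM2-/- sham replicate 2, the lowest of these sham hearts. With scaling to the reads outside the rRNA-related loci it was 0.51 and *P4ha1* passed (adjusted p = 0.0191 from limma), where the median of all genes was 0.36. With scaling to total reads the log2 fold change was 0.67, where that median was 0.52.

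*P4ha3* encodes another catalytic subunit of the same enzyme and was scarce in hearts without MI. Sham hearts had 12.3, 18.5 and 5.88 normalized counts in PKM2fl/fl and 45.0, 10.4 and 12.9 in PKM2-/-, which rest on 8 to 28 reads. MI hearts had 233, 294 and 332 in PKM2fl/fl and 192, 311 and 338 in PKM2-/-, which rest on 151 to 490 reads. All 6 MI hearts were above all 6 sham hearts. On the scale of log2(normalized count + 1), which understates changes of scarce genes, *P4ha3* rose by 4.55 in PKM2fl/fl (SE 0.54, adjusted p = 8.93e-06 from limma). It rose by 3.81 in PKM2-/- (SE 0.54, adjusted p = 2.68e-05 from limma), with an interval of 2.66 to 4.97 that overlaps the 3.39 to 5.71 of the controls.

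The lysyl hydroxylase gene *Plod1* changed least of the members in PKM2fl/fl. Its sham values were 1530, 1736 and 1681 normalized counts in PKM2fl/fl and 1786, 1838 and 1995 in PKM2-/-. Its MI values were 2401, 2020 and 2227 in PKM2fl/fl and 2486, 2333 and 2302 in PKM2-/-. Within each genotype the MI hearts lay above the sham hearts, and *Plod1* rose 1.34-fold in PKM2fl/fl (adjusted p = 0.00303 from limma) and 1.27-fold in PKM2-/- (adjusted p = 0.0103 from limma).

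*Plod2* encodes the enzyme that hydroxylates lysines in the telopeptides, the short ends of the collagen molecule. PKM2fl/fl sham hearts had 1160, 1116 and 1033 normalized counts and MI hearts 1833, 1655 and 2196, a rise of 1.71-fold (log2 fold change 0.77, SE 0.13, adjusted p = 0.000178 from limma). PKM2-/- sham hearts had 1434, 1629 and 1463 and MI hearts 1470, 1855 and 2155. The lowest PKM2-/- MI heart, replicate 1, lay among the sham hearts, and the log2 fold change was 0.26 (95% interval -0.02 to 0.54, adjusted p = 0.102 from limma). Without that heart it was 0.41 and *Plod2* passed (adjusted p = 0.0113 from limma), so the count of members that rose in PKM2-/- became 9.

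*Serpinh1* was the most abundant member. PKM2fl/fl hearts had 2736, 4462 and 2990 normalized counts after sham surgery and 12340, 10534 and 11303 after MI. PKM2-/- hearts had 3751, 3437 and 4032 after sham surgery and 8555, 12027 and 12866 after MI. No MI heart came near a sham heart, although 1 PKM2-/- MI heart was well under the other two. The rise was 3.43-fold in PKM2fl/fl (log2 fold change 1.78, SE 0.19, adjusted p = 4.30e-06 from limma) and 2.94-fold in PKM2-/- (1.56, SE 0.19, adjusted p = 8.14e-06 from limma).

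Among the lysyl oxidases, *Lox* showed the largest change in both genotypes. It had 429, 819 and 320 normalized counts in the PKM2fl/fl sham hearts and 6511, 4969 and 7453 in the MI hearts. It had 648, 496 and 584 in the PKM2-/- sham hearts and 7641, 7939 and 8043 in the MI hearts. The lowest MI heart was thus several times above the highest sham heart. *Lox* rose 12.9-fold in PKM2fl/fl (log2 fold change 3.69, SE 0.25, adjusted p = 6.34e-08 from limma) and 13.7-fold in PKM2-/- (3.78, SE 0.25, adjusted p = 3.92e-08 from limma).

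*Loxl2* and *Loxl3* followed, both enzymes with scavenger receptor domains ahead of the catalytic domain. *Loxl2* went from 242, 279 and 243 normalized counts after sham surgery to 2206, 2071 and 2216 after MI in PKM2fl/fl, and from 394, 315 and 307 to 2015, 2544 and 2089 in PKM2-/-. *Loxl3* went from 233, 237 and 245 to 1733, 1320 and 1370 in PKM2fl/fl, and from 268, 268 and 279 to 1997, 1919 and 1622 in PKM2-/-. The sham hearts of each genotype lay within a narrow band for *Loxl3*, and no MI heart approached it. *Loxl2* rose 8.49-fold in PKM2fl/fl and 6.53-fold in PKM2-/-, and *Loxl3* rose 6.13-fold and 6.74-fold (adjusted p between 2.20e-09 and 7.22e-09 from limma over these 4 values).

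*Loxl1*, which is best known for its part in elastic fibres, had 662, 930 and 725 normalized counts after sham surgery and 3251, 2792 and 2480 after MI in PKM2fl/fl. In PKM2-/- it had 1085, 761 and 1146 after sham surgery and 3544, 3376 and 2950 after MI. The MI hearts of each genotype were all above its sham hearts, by 3.69-fold in PKM2fl/fl and 3.34-fold in PKM2-/- (adjusted p = 4.78e-07 and 6.49e-07 from limma). *Loxl4* was the scarcest lysyl oxidase. Its sham hearts had 73.4, 65.7 and 65.7 in PKM2fl/fl and 70.7, 61.4 and 78.8 in PKM2-/-, and its MI hearts had 203, 144 and 168 in PKM2fl/fl and 228, 215 and 214 in PKM2-/-. *Loxl4* rose 2.47-fold in PKM2fl/fl and 3.10-fold in PKM2-/- (adjusted p = 3.96e-05 and 3.58e-06 from limma), again with no overlap.

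**Figure D2:**
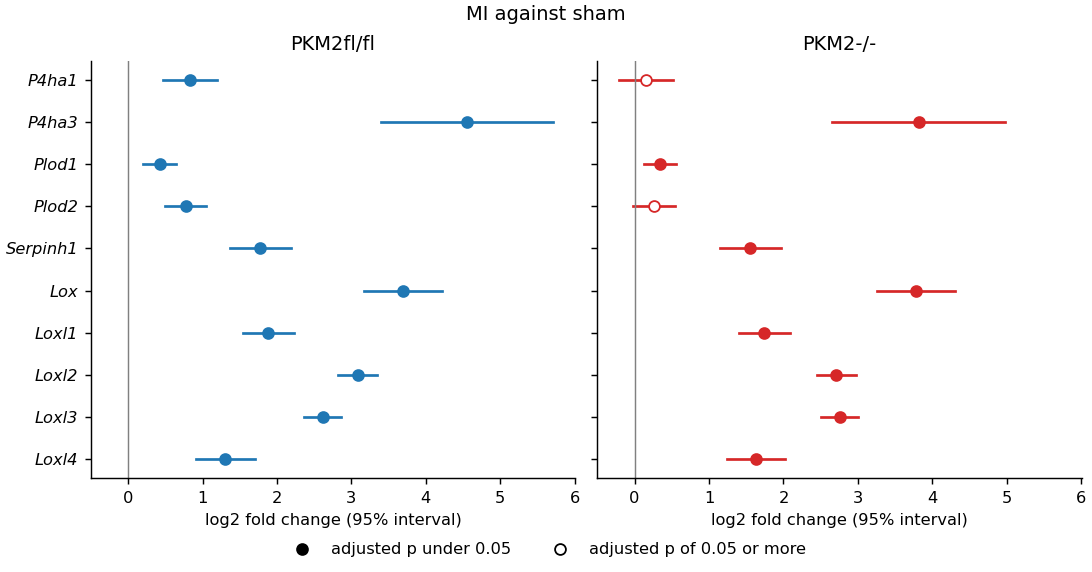
Log2 fold change of MI against sham (horizontal axis, on log2 of normalized count + 1) with its 95% interval from limma for each member, PKM2fl/fl on the left and PKM2-/- on the right. Filled points have an adjusted p under 0.05; all 10 are filled in PKM2fl/fl, and *P4ha1* (0.16) and *Plod2* (0.26) are open in PKM2-/-.

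These changes altered the make-up of the lysyl oxidase family. Levels were compared between genes as normalized counts per kilobase of the canonical transcript. *Loxl1* made up 61.4% to 62.9% of the summed lysyl oxidase level in the PKM2fl/fl baseline hearts and 59.3% to 61.3% in the PKM2-/- baseline hearts, and *Lox* 7.17% to 8.40% over these 4 hearts. After sham surgery the *Lox* share was 22.9% ± 6.7 (SD, n = 3) in PKM2fl/fl and 21.5% ± 1.2 (SD, n = 3) in PKM2-/-. After MI it was 44.2% ± 5.6 (SD, n = 3) and 46.6% ± 2.6 (SD, n = 3), and the *Loxl1* share was 28.9% ± 4.2 and 27.9% ± 1.9. *Lox* was below *Loxl1* in every baseline and sham heart on this scale and above it in every MI heart. The shares of *Loxl2* (9.16% to 14.9% in all hearts) and *Loxl3* (10.1% to 15.0%) kept to these ranges in all 6 groups. The summed family level was 402 to 614 per kilobase in sham hearts and 2616 to 3661 in MI hearts.

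For the other families the shift was smaller. *P4ha3* made up 0.0842% to 1.47% of the summed level of the prolyl 4-hydroxylase alpha subunits in baseline and sham hearts and 6.85% to 9.48% in MI hearts. The remaining subunit gene *P4ha2*, which is no member, went from 42.0% to 46.3% of that level in PKM2fl/fl sham hearts to 21.9% to 27.7% in PKM2fl/fl MI hearts. Its normalized count after MI differed from sham by a log2 fold change of -0.24 in PKM2fl/fl (adjusted p = 0.106 from limma) and fell by 0.53 on the log2 scale in PKM2-/- (adjusted p = 0.00127 from limma). Within the lysyl hydroxylases, *Plod3* was 29.7% to 35.5% of the summed level in MI hearts and 20.9% to 27.7% in all others, while the *Plod1* share was 26.4% to 33.4% in MI hearts and 31.4% to 41.8% in the others.

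**Figure D3:**
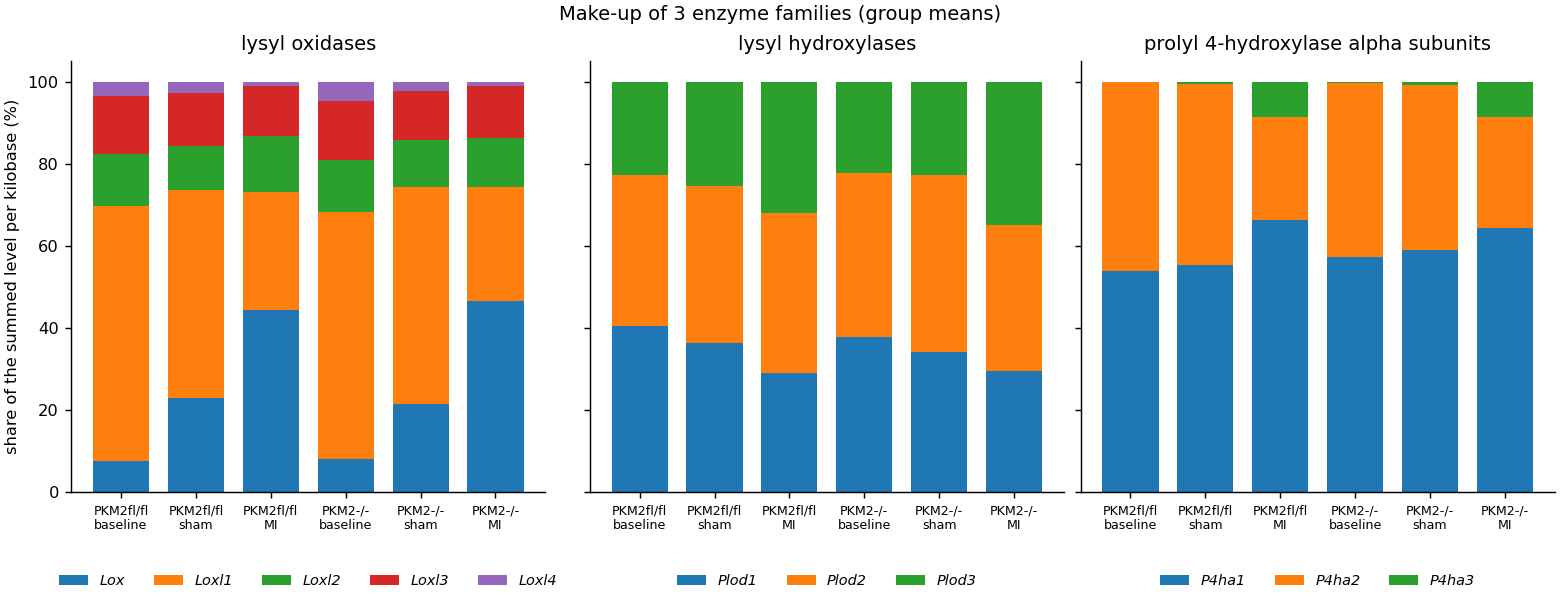
Mean share (vertical axis, percent) of each gene in the summed level per kilobase of its enzyme family, for the lysyl oxidases, the lysyl hydroxylases and the prolyl 4-hydroxylase alpha subunits in the 6 groups. The *Lox* part of the left bars grows from 7.53% at baseline to 44.2% after MI in PKM2fl/fl and from 7.97% to 46.6% in PKM2-/-, and *P4ha3* becomes visible at 8.51% and 8.58% after MI.

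Per kilobase, the order of the members also changed with MI. In PKM2fl/fl baseline hearts *Serpinh1* led with a mean of 1058, followed by *P4ha1* (401), *Plod1* (308), *Plod2* (279), *Loxl1* (251), *Loxl3* (57.4), *Loxl2* (51.1), *Lox* (30.3), *Loxl4* (13.9) and *P4ha3* (1.43). *Plod1* and *Plod2* overlapped there, as did *Plod2* and *Loxl1*, and the other neighbours in that order lay apart. These ranges rest on 2 hearts, and in PKM2-/- baseline hearts *Loxl3* and *Loxl2* overlapped. Both of these genes also share exon bases with other genes, as given below. After MI in PKM2fl/fl the order was *Serpinh1* (4054), *Lox* (1321), *P4ha1* (928), *Loxl1* (853), *Plod2* (509), *Loxl2* (407), *Plod1* (377), *Loxl3* (360), *P4ha3* (119) and *Loxl4* (31.5). *P4ha1* overlapped *Loxl1*, and *Plod1* overlapped both *Loxl2* and *Loxl3*. PKM2-/- hearts gave the same first and last pairs after MI, with *Serpinh1* at 3968, *Lox* at 1648, *P4ha3* at 117 and *Loxl4* at 40.2 per kilobase. In sham hearts *Lox* stood at 109 per kilobase in PKM2fl/fl and 121 in PKM2-/-, below *Loxl1* and above *Loxl3* in both genotypes.

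The substrate genes rose as well. *Col1a1*, *Col1a2* and *Col3a1*, which encode the chains of type I and type III collagen, had log2 fold changes of 3.22, 2.85 and 2.54 in PKM2fl/fl and 3.11, 2.78 and 2.68 in PKM2-/-. Of 11 fibrillar collagen genes 10 were tested, of which 9 rose in each genotype and *Col11a2* fell in PKM2-/- alone by that threshold, with medians of 2.64 and 2.68. Set against *Col1a1* within each heart, only *Lox* and *P4ha3* had higher group means after MI than after sham surgery. *Lox* had 5.02 to 7.13 normalized counts per 100 of *Col1a1* in the baseline hearts, 6.74 to 11.3 in the sham hearts and 8.70 to 19.6 in the MI hearts. The sham and MI ranges of *Lox* overlap. *P4ha3* went from 0.146 to 0.468 per 100 in sham hearts to 0.442 to 0.649 in MI hearts, which overlap. *Plod1*, *Plod2* and *P4ha1* went the other way, from 18.6 to 41.7, 12.0 to 34.6 and 21.4 to 55.6 per 100 in sham hearts to 3.53 to 6.37, 2.90 to 4.29 and 4.43 to 6.06 in MI hearts. *Serpinh1* fell between, from 39.0 to 78.3 per 100 in sham hearts to 18.5 to 23.3 in MI hearts. The mean of *Loxl2* went from 4.59 to 4.04 per 100 in PKM2fl/fl and from 5.59 to 4.23 in PKM2-/-. That of *Loxl3* went from 4.39 to 2.76 and from 4.64 to 3.62, and for both genes the sham and MI hearts overlapped. This ratio shows unequal change within a heart and was not tested.

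**Figure D4:**
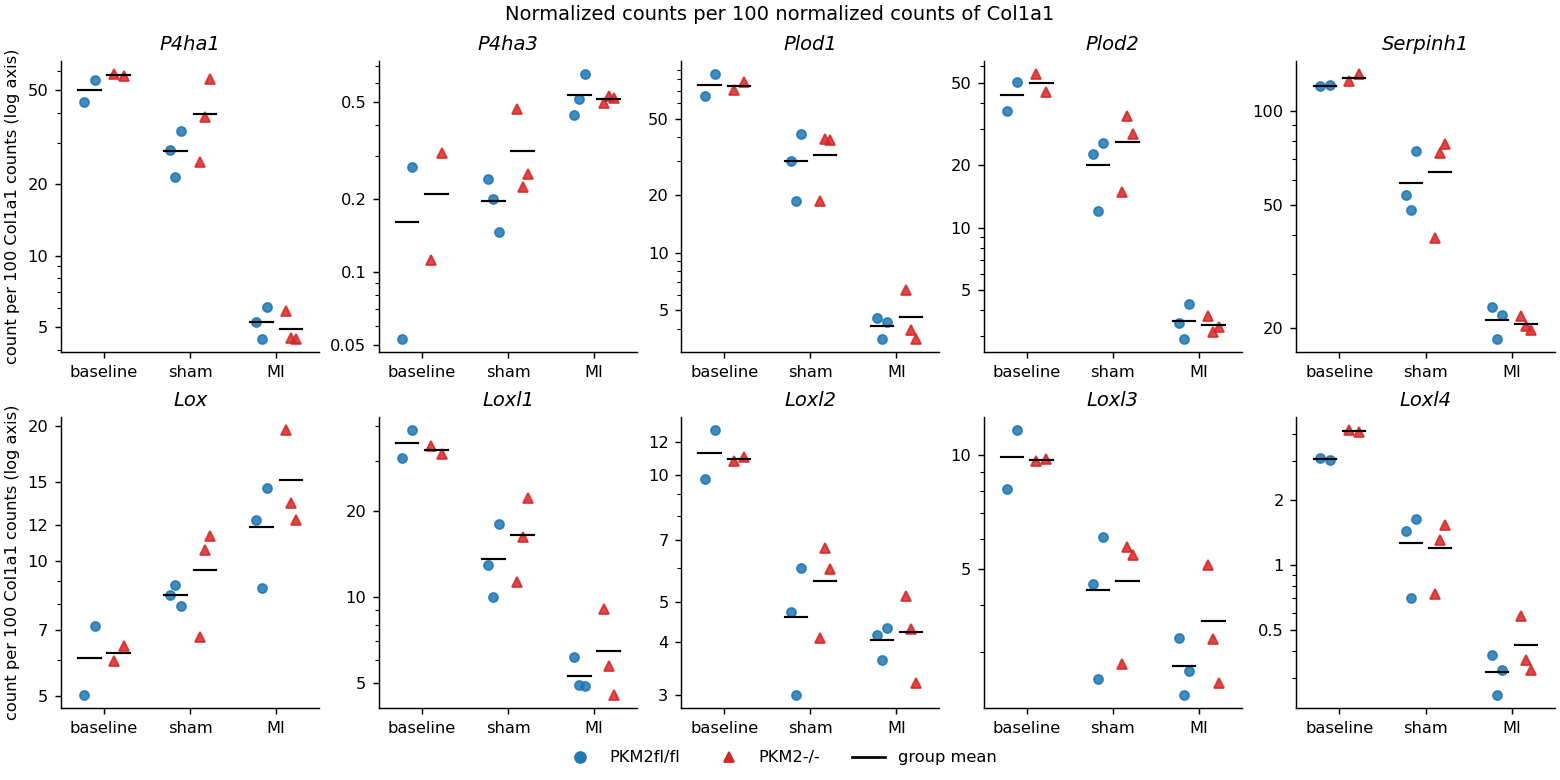
Normalized counts of each member per 100 normalized counts of *Col1a1* in the same library (vertical axis, logarithmic, its own scale per panel), with circles for PKM2fl/fl, triangles for PKM2-/- and bars for group means. The group means of *Lox* and *P4ha3* are highest after MI, and the ratios of *P4ha1*, *Plod1*, *Plod2*, *Serpinh1*, *Loxl1* and *Loxl4* after MI are all below those of the sham hearts. For *Loxl2* and *Loxl3* the means are lower after MI than after sham surgery, and the hearts overlap.

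The rest of the pathway was followed through 28 other genes of collagen modification, folding, transport and processing. After MI 19 rose and 3 fell in each genotype (medians of 0.95 and 0.97). The 10 with the smallest adjusted p in PKM2fl/fl were *Adamts2* and *Bmp1*, which cleave procollagen ends, *Fkbp10* and *Ppib*, which are prolyl isomerases, *Sparc*, *P3h1*, *P4hb*, *Pxdn*, *Colgalt1* and *Plod3*. *P4hb*, the partner subunit of both P4ha proteins, rose 2.32-fold in PKM2fl/fl and 2.55-fold in PKM2-/-. *Fkbp10*, which acts with the lysyl hydroxylase 2 protein, rose 3.84-fold and 4.52-fold. *Sparc*, a collagen-binding protein, rose 4.29-fold and 4.21-fold, and *P3h1*, a prolyl 3-hydroxylase, 3.05-fold and 3.15-fold (adjusted p of at most 4.47e-07 from limma for these 4 genes in both genotypes). *Pxdn*, which forms sulfilimine crosslinks in collagen IV, rose 3.14-fold and 3.21-fold.

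A list of 15 HIF-1 target genes without any member showed no common direction. In PKM2fl/fl 4 rose and 4 fell after MI, and in PKM2-/- 6 rose and 5 fell, with medians of 0.06 and 0.26. *Ldha* and *Pgk1*, the glycolytic genes among its most abundant members, had log2 fold changes of -0.01 and 0.08 in PKM2fl/fl and 0.14 and 0.26 in PKM2-/-, and neither passed. *Egln1*, an oxygen-sensing prolyl hydroxylase that acts on HIF and not on collagen, fell by 1.40 and by 1.68 on the log2 scale. Other genes of the list were higher after MI. The mean of *Slc2a1* went from 348 normalized counts after sham surgery to 1039 after MI in PKM2fl/fl and from 439 to 1425 in PKM2-/-. That of *Pfkfb4* went from 171 to 354 and from 182 to 483. The part of HIF-1 in the members' changes was not tested.

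Markers of several cell types moved with MI, and their part in the members' changes was not tested. All 10 cardiomyocyte markers fell in both genotypes (medians of -1.70 and -2.12), and their summed level was 1084440 to 1377670 normalized counts in sham hearts and 235598 to 546177 in MI hearts. Of 10 leukocyte markers 9 were tested and 6 rose in each genotype, with *Lyz2* up by 1.76 and 1.97 and *Ptprc* up by 1.88 and 2.09 on the log2 scale. Their summed level was 5218 to 10666 in sham hearts and 20823 to 36723 in MI hearts. Of 10 fibroblast markers 9 were tested, of which 5 rose and 2 fell in each genotype. *Postn*, a matricellular gene of activated fibroblasts, rose by 3.82 and 3.59, while *Dcn* fell by 0.53 and 0.58 and *Gsn* fell by 1.53 and 1.93 on the log2 scale. The summed fibroblast level overlapped between sham hearts (31129 to 43588) and MI hearts (31904 to 40811), and *Cthrc1* was at 0 in 14 of 16 libraries. Abundant genes weigh most in such a sum, among them *Dcn*, with a mean of 10708 in PKM2fl/fl sham hearts and 7314 after MI. The mean of *Pdgfra* went from 1453 after sham surgery to 2355 after MI in PKM2fl/fl and from 1513 to 2703 in PKM2-/-. That of *Lum* went from 1340 to 2038 and from 1395 to 1915. Of 8 endothelial markers 2 rose and 1 fell in PKM2fl/fl, and 2 rose and 2 fell in PKM2-/-. Of 6 mural cell markers 1 rose and 3 fell in PKM2fl/fl, and 0 rose and 5 fell in PKM2-/-. Of 5 atrial markers 4 were tested, and *Nppa* alone passed, rising in both genotypes.

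Surgery by itself went with a higher *Lox* level. *Lox* had 149 and 141 normalized counts in the PKM2fl/fl baseline hearts and 125 and 154 in the PKM2-/- baseline hearts, all below the lowest sham heart at 320. From baseline to sham it rose 3.32-fold in PKM2fl/fl (adjusted p = 0.0162 from limma) and 4.11-fold in PKM2-/- (adjusted p = 0.00128 from limma). It was the 1 member of 10 that rose in PKM2fl/fl, against 0.165% of all tested genes. That call was lost without PKM2fl/fl baseline replicate 1, baseline replicate 2 or sham replicate 1 (adjusted p = 0.110, 0.140 and 0.070 from limma) and when the compared groups were fitted alone (adjusted p = 0.175). The log2 fold change under these 4 settings was 1.77, 1.69, 1.82 and 1.73, against 1.73 with all libraries in 1 fit. In PKM2-/- hearts 2 members rose, against 3.48% of all tested genes. The other was *P4ha1*, which had 1219 and 1362 normalized counts at baseline and rose 1.80-fold (log2 fold change 0.85, adjusted p = 0.0189 from limma). That call was lost under the scaling to total reads (log2 fold change 1.06, adjusted p = 0.0657) and when any of 4 of the 5 PKM2-/- baseline and sham hearts was left out, baseline replicates 1 and 2 and sham replicates 1 and 3 (log2 fold changes of 0.69 to 0.93, adjusted p of 0.054 to 0.142). In PKM2fl/fl *P4ha1* had 1330 and 1089 normalized counts at baseline, and every sham heart was above both (1.30-fold, log2 fold change 0.38, adjusted p = 0.611 from limma).

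For 7 further members the log2 fold changes from baseline to sham in PKM2fl/fl were -0.13 for *Plod1*, 0.08 for *Plod2*, 0.19 for *Serpinh1*, -0.12 for *Loxl1*, -0.09 for *Loxl2*, 0.02 for *Loxl3* and -0.12 for *Loxl4*. In PKM2-/- hearts the same values were 0.18, 0.44, 0.39, 0.42, 0.47, 0.33 and -0.39. None of these 7 passed in either genotype. *P4ha3* stood at 1.57 and 5.31 normalized counts in PKM2fl/fl baseline hearts and 2.33 and 7.33 in PKM2-/- baseline hearts. Those values rest on 2 to 8 reads, and the log2 fold change to sham was 1.59 (adjusted p = 0.397) and 1.88 (adjusted p = 0.0912 from limma). In PKM2-/- it passed under the scaling to total reads (2.02, adjusted p = 0.0336 from limma), where *P4ha1* did not, and with DESeq2 on the recovered reads (2.32, adjusted p = 0.0365), where *Lox* and *P4ha1* passed too. In PKM2-/- the sham hearts lay above both baseline hearts for 8 of 10 members (18.4% of all tested genes), and in PKM2fl/fl for 3 (17.4%).

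Other genes moved between baseline and sham as well, and their part in the members' values was not tested. Of 9 leukocyte markers tested, 0 passed in PKM2fl/fl by limma and 3 rose in PKM2-/-, and 8 had an unadjusted p under 0.05 in each genotype, with median log2 fold changes of 0.90 and 0.93. *S100a8* and *S100a9*, which neutrophils express, rose in PKM2-/- by 3.41 and 3.43 and *Cd68* by 1.01 on the log2 scale. The summed leukocyte level was 3660 to 5058 normalized counts in baseline hearts and 5218 to 10666 in sham hearts. Of 10 fibrillar collagens tested, 0 passed in PKM2fl/fl (7 at an unadjusted p under 0.05) and 5 rose in PKM2-/-, with medians of 0.87 and 1.24. Of 4 atrial markers tested, 0 passed in PKM2fl/fl (3 at an unadjusted p under 0.05) and *Nppa* rose in PKM2-/-, with medians of 2.99 and 1.38. Cardiomyocyte markers had medians of 0.05 and -0.02, and 0 of 10 passed in either genotype or reached an unadjusted p under 0.05. Fibroblast markers had medians of 0.25 and 0.41, and 0 of 9 passed in PKM2fl/fl and 1 rose in PKM2-/-. Of 8 endothelial and 6 mural cell markers none passed in PKM2fl/fl by limma, where 5 and 3 had an unadjusted p under 0.05, and 1 endothelial marker rose and 1 mural cell marker fell in PKM2-/-.

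Genotype was compared at each of the 3 states, and 0 of 10 members passed at baseline, after sham surgery or after MI by limma. Over all genes 0.00972%, 0.00972% and 0.967% passed in these comparisons. With edgeR and with DESeq2 on the recovered reads, 0 members passed in the same 3 comparisons. At an unadjusted p under 0.05 the counts of members were 0 at baseline, 4 after sham surgery and 1 after MI, where 3.64%, 9.95% and 17.0% of all tested genes did so. Reads of rRNA-related loci took a different share in the genotypes, at 17.3% to 22.1% in PKM2fl/fl and 39.6% to 43.8% in PKM2-/- baseline hearts. It was 15.8% to 27.8% and 28.5% to 46.0% in the sham hearts, and 19.8% to 44.5% and 15.99% to 34.2% in the MI hearts, and its part in the genotype values was not tested.

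After sham surgery all 10 members had a positive log2 difference of PKM2-/- from PKM2fl/fl, with a median of 0.30 against -0.00558 over all genes. The members share the same 6 hearts, so these signs are not independent of each other. The 4 members with an unadjusted p under 0.05 were *P4ha1* (0.56, 95% interval 0.20 to 0.93), *Plod2* (0.45, 0.17 to 0.73), *Loxl2* (0.40, 0.14 to 0.67) and *Loxl1* (0.36, 0.02 to 0.70), with adjusted p of 0.219 to 0.473 from limma. For *Plod2* and *Loxl2*, as for *Plod1* and *Loxl3*, every PKM2-/- sham heart was above every PKM2fl/fl sham heart, which was so for 8.27% of all tested genes. For *P4ha1* the highest PKM2fl/fl heart, at 1988, was above the lowest PKM2-/- heart, at 1818. Under scaling to total reads the *P4ha1*, *P4ha3*, *Plod2*, *Loxl1* and *Loxl2* differences stayed positive, while those of *Lox*, *Loxl3*, *Loxl4*, *Plod1* and *Serpinh1* became negative.

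After MI the log2 difference of PKM2-/- from PKM2fl/fl was 0.33 for *Loxl3* (95% interval 0.08 to 0.58, adjusted p = 0.165 from limma), with 1 of 3 PKM2fl/fl hearts, at 1733, above the lowest PKM2-/- heart. *Lox* (0.34, -0.19 to 0.86) and *Loxl4* (0.36, -0.03 to 0.76) were the 2 members whose PKM2-/- hearts all lay above all PKM2fl/fl hearts, as did 10.7% of all tested genes. The differences for *P4ha1* (-0.11, -0.47 to 0.25), *P4ha3* (-0.06, -1.21 to 1.10), *Plod2* (-0.06, -0.34 to 0.22) and *Serpinh1* (-0.05, -0.46 to 0.36) had intervals on both sides of 0. At baseline the differences ran from -0.19 for *Loxl1* to 0.39 for *P4ha3*, and every 95% interval included 0.

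**Figure D5:**
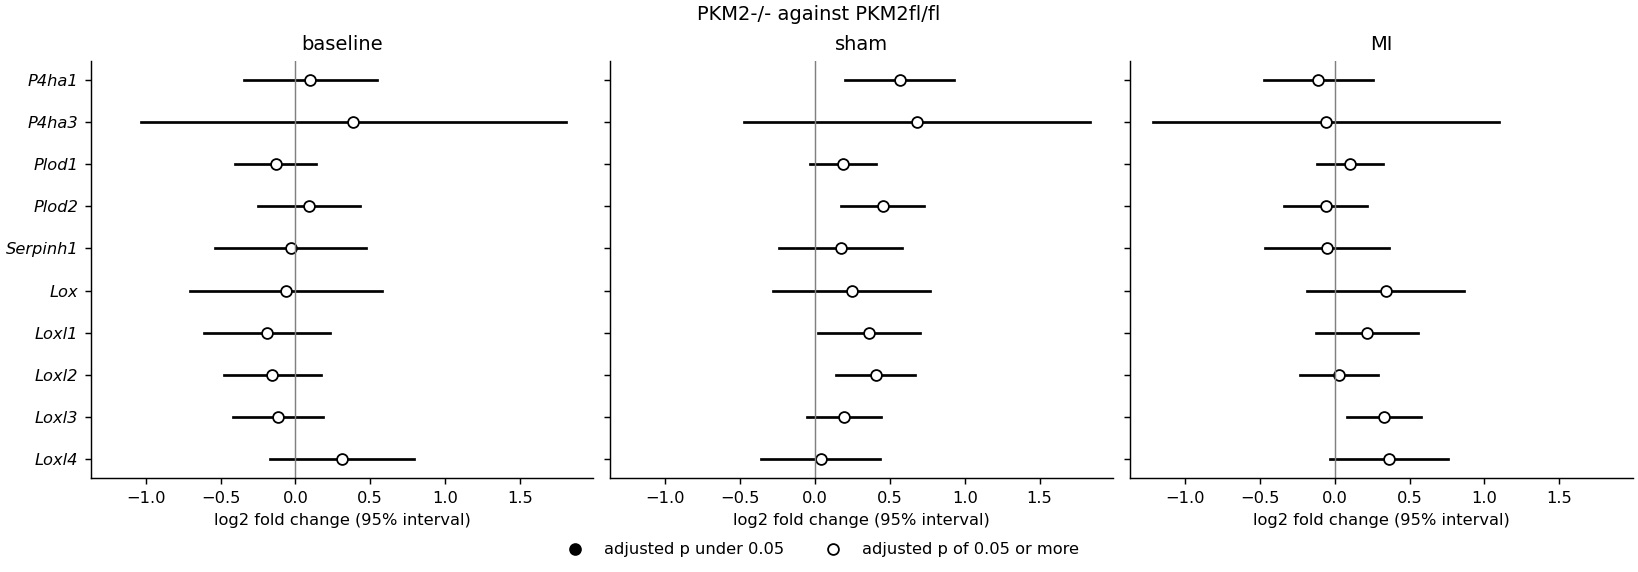
Log2 difference of PKM2-/- from PKM2fl/fl hearts (horizontal axis, on log2 of normalized count + 1) with its 95% interval from limma for each member at baseline, after sham surgery and after MI. No point is filled, since none had an adjusted p under 0.05; in the sham panel all 10 points lie to the right of 0, from 0.04 for *Loxl4* to 0.68 for *P4ha3*.

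Whether the response to MI itself differed between genotypes was tested by the difference of the 2 log2 fold changes, which rests on the same sham and MI hearts as the comparisons above. By limma 0 of 10 members passed, as did 0.0% of all tested genes, and 0 members passed with edgeR or DESeq2 on the recovered reads. At an unadjusted p under 0.05 there were 3 members, and 8.28% of all tested genes. The log2 fold change of *P4ha1* in PKM2-/- less that in PKM2fl/fl was -0.67 (95% interval -1.19 to -0.16, adjusted p = 0.514 from limma). The same difference was -0.51 for *Plod2* (-0.90 to -0.12, adjusted p = 0.522) and -0.38 for *Loxl2* (-0.75 to -0.01, adjusted p = 0.594). Of the members, *P4ha3* had the difference farthest from 0, at -0.74, with an interval that spans 0 (-2.37 to 0.90, adjusted p = 0.822). For *Lox* the difference was 0.09 (-0.65 to 0.83) and for *Serpinh1* -0.22 (-0.81 to 0.37).

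Across the 16 libraries, the mean of the 10 members' standardised log2 levels was followed most closely by *Mrc2*, with a Pearson r of 0.992 among 20566 other genes. *S100a11*, *Bgn*, *Tpm4*, *Col6a3*, *Gusb*, *Fstl1* and *Gm16091* came next, down to an r of 0.989. These values describe 16 hearts that fall into MI and other hearts. Among the members themselves, *Serpinh1* (0.985) and *Loxl2* (0.983) were closest to that mean and *P4ha1* (0.864) was farthest. Each member is part of that mean, which raises its r, so these values do not compare with those of the other genes.

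Some members share exon bases with other genes in the GENCODE annotation of GRCm39. The library kit does not mark strand, so reads in such bases cannot be told apart. *Loxl3* shares 1182 bases with *Htra2* on the opposite strand, and *Loxl2* shares 943 with *R3hcc1*, whose highest normalized counts in any library were 772 and 312. *Plod2* shares 503 bases with B430319G15Rik, *Loxl1* 160 with Gm57034, *Loxl4* 78 with *R3hcc1l* and *Lox* 30 with Gm41724. In GRCm38.p6 *Loxl1* lies on chromosome 9 from 58287723 to 58313212 and *Plod2* on the same chromosome from 92539636 to 92608428, the chromosome that also carries *Pkm* (59656576 to 59679372). *Lox* lies on chromosome 18, *Loxl2* on 14, *Loxl3* on 6, *Loxl4* on 19, *P4ha1* on 10, *Plod1* on 4, and *P4ha3* and *Serpinh1* on 7.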

How the data were processed

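RNA sequencing was carried out on rRNA-depleted total RNA (500 ng) of the left ventricle of 16 mice. Reads were trimmed by the authors with PRINSEQ, mapped to mm10 by HISAT2 and assigned to genes by featureCounts, and DESeq2 supplied the normalization. What they deposited per gene and library is a normalized signal, that is, reads scaled by a size factor. How featureCounts treated strand and multi-mapped reads is not given in the sources used here. The table's 6 columns of the authors' own comparison (mean, log2 fold change, its standard error, Wald statistic, p-value and adjusted p-value) were not used, and 0 sample columns were left without a sample. Within each library the values are whole multiples of 1 step, so reads were recovered by division, and 100% of the values above 0 came out within 0.05 of a whole number. Where a value rests on few reads, the counting error is that of those reads, and depth is given with the results.

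The members and all gene lists were chosen with earlier results of these data known. Groups were read from the sample labels. Limma 3.58.1 in R 4.3.3 (limma-trend) was fitted to log2(normalized signal + 1) of all 16 libraries in 6 groups, over 20576 genes with a mean of at least 10, with Benjamini-Hochberg adjustment over all of them. The 8 contrasts were MI against sham and sham against baseline in each genotype, PKM2-/- against PKM2fl/fl in each state, and the difference of the MI effect between genotypes. The p-values measure the spread between these mice. Besides the members, the genes named are the 10 other collagen modification genes with the smallest adjusted p for MI in PKM2fl/fl, up to 3 of the most abundant genes of each other list, *Pkm*, and the 8 genes whose levels were most like the members' mean. Further genes (*P4ha2*, *Cthrc1*, *Col11a2*, *Cd68*, *S100a8*, *S100a9*, *Pdgfra*, *Lum*, *Slc2a1*, *Pfkfb4* and genes overlapping a member) were named after their values were seen.

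Alternatives were total read, non-rRNA read and TMM scaling, edgeR 4.0.16 and DESeq2 1.42.0 on the recovered reads, a smaller pseudocount (0.1), all genes without the filter, the compared groups alone, the replicate number as a block, and each library left out in turn. On the recovered reads edgeR called 10504 genes for MI against sham in PKM2fl/fl and 11671 in PKM2-/-, where limma called 10299 and 11679. The fits were run before use on simulated data with large changes in a single group. That setting cannot show how well they find small differences such as those between genotypes. Per-kilobase levels use the length of the canonical transcript in GENCODE M39. Protein sequences were not analysed here.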

Additional observations from a re-analysis of the deposited data

How the results depend on the processing

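Of the members' counts, those for MI against sham in PKM2fl/fl were 7 with total read scaling and 10 under every other alternative, and those in PKM2-/- were 9 with total read scaling, 10 with non-rRNA read scaling and 8 to 9 with a library left out. The 4 comparisons of genotype or of the MI effect between genotypes gave 0 members under every alternative run. For sham against baseline, PKM2fl/fl gave 0 when the compared groups were fitted alone and 0 to 1 with a library left out, and PKM2-/- gave 3 with DESeq2, 2 with total read scaling, of which *P4ha3* took the place of *P4ha1*, and 1 to 2 with a library left out.

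Counts of all genes past the test moved more. For MI against sham in PKM2fl/fl, total read scaling gave 6027 in place of 10299, 39.7% of them higher in place of 49.5%, and in PKM2-/- it gave 79.4% higher in place of 50.5%. Non-rRNA read scaling gave 60.6% and 72.2% higher. For PKM2-/- against PKM2fl/fl after MI (199), the count was 121 with total read scaling, 1036 with DESeq2, 6 with the compared groups alone and 11 to 2279 with a library left out, the highest without PKM2fl/fl MI replicate 3. After sham surgery (2) it was 113 with total read scaling, 0 with non-rRNA read scaling, 272 with DESeq2, 0 without the filter, 9 with the compared groups alone and 0 to 90 with a library left out. At baseline (2) it was 44, 0 and 17 with the first 3 of these, 1 with edgeR, 9 with a pseudocount of 0.1, 48 with the compared groups alone and 0 to 40 with a library left out. The difference of the MI effect (0) gave 52 with total read scaling, 53 with DESeq2 and 0 to 486 with a library left out. Sham against baseline gave 94, 369 and 1 with total read scaling, DESeq2 and the compared groups alone in PKM2fl/fl (39) and 7 to 282 with a library left out. In PKM2-/- (1058) it gave 588 with total read scaling and 316 to 979 with a library left out.

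The replicate numbers pair no animals, and deviations of same-numbered hearts correlated by -0.20 to 0.13. With the replicate number as a block, the all-gene counts became 75 after MI, 0 after sham surgery and 1 at baseline between genotypes, and 24 for sham against baseline in PKM2fl/fl, and no member's call changed.

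Signs turned only for values that did not pass. With total read scaling the log2 differences of PKM2-/- from PKM2fl/fl after MI were 0.26 for *P4ha1*, 0.31 for *P4ha3*, 0.31 for *Plod2* and 0.32 for *Serpinh1*, and with non-rRNA read scaling 0.054, 0.11, 0.10 and 0.11. After sham surgery total read scaling gave -0.077 for *Lox*, -0.13 for *Loxl3*, -0.28 for *Loxl4*, -0.14 for *Plod1* and -0.15 for *Serpinh1*, and non-rRNA read scaling -0.026 for *Loxl4*. At baseline total read scaling gave -0.27 for *Loxl4*, -0.49 for *P4ha1*, -0.043 for *P4ha3* and -0.50 for *Plod2*, and non-rRNA read scaling -0.029 for *P4ha1* and -0.038 for *Plod2*. The difference of the MI effect was 0.54 for *Loxl1*, 0.31 for *Loxl2*, 0.016 for *P4ha1*, 0.61 for *Plod1*, 0.18 for *Plod2* and 0.47 for *Serpinh1* with total read scaling, and 0.081 for *Loxl1*, 0.14 for *Plod1* and 0.0061 for *Serpinh1* with non-rRNA read scaling. For sham against baseline in PKM2fl/fl total read scaling gave -0.035 for *Loxl3*. These scalings shifted the median of all genes by up to 0.68. Relative to that median the same number of members lay above 0 under every scaling. That sameness was fixed in advance, since a scaling moves all genes of a library almost alike, and it does not test the scaling. What causes the shift of the median was not tested.

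With a library left out, the members whose sign could turn had these log2 ranges. For MI against sham in PKM2-/- it was -0.016 to 0.31 for *P4ha1*. For genotype after MI they were -0.076 to 0.091 for *Loxl2*, -0.21 to 0.19 for *P4ha3*, -0.19 to 0.088 for *Plod2* and -0.16 to 0.13 for *Serpinh1*. For genotype after sham surgery they were -0.050 to 0.63 for *Lox* and -0.048 to 0.13 for *Loxl4*. For genotype at baseline they were -0.21 to 0.087 for *Lox*, -0.045 to 0.24 for *P4ha1*, -0.27 to 1.05 for *P4ha3*, -0.29 to 0.027 for *Plod1* and -0.32 to 0.26 for *Serpinh1*. For the difference of the MI effect it was -0.29 to 0.39 for *Lox*. For sham against baseline in PKM2fl/fl they were -0.27 to 0.0050 for *Loxl1*, -0.20 to 0.011 for *Loxl2*, -0.017 to 0.052 for *Loxl3*, -0.42 to 0.19 for *Loxl4* and -0.10 to 0.48 for *Serpinh1*.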

Other observations

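Within groups the members did not all vary together. After each group's mean was taken off, the 45 pairs of members had a median Pearson r of 0.40 over the 16 libraries, as a description of hearts that share library depth and tissue make-up, and 16 pairs were over 0.5 and 7 below 0. *P4ha1* and *Serpinh1* had an r of 0.81 and *Lox* and *P4ha1* 0.75, so the hearts with more of the prolyl hydroxylase subunit for their group also had more of the chaperone and of *Lox*. *Loxl3* and *Plod1* had an r of 0.72. *Plod2* had negative values with *Loxl1* (-0.46) and *Loxl3* (-0.44), as did *P4ha3* with *Loxl4* (-0.21). None of these correlations was tested. Without the group means taken off, the same 45 pairs ran from 0.65 to 0.99 with a median of 0.88.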
